A study of Mus musculus with 31 samples.

Results

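Tumors grown from GR KO melanoma cells were compared with the same cells in culture: 5 tumors from mice given the control cream against 3 cultures kept in DMSO, 8 of the 31 libraries in the series, taken by their deposited labels and scaled together. The series asks how glucocorticoids (GC) applied to the skin act on melanoma, and the GR KO cells remove the glucocorticoid receptor (GR, encoded by *Nr3c1*) from the tumor cells. The question here was which genes that the cultured clone had lost, relative to the parental line, were back in its tumors. RNA was sequenced from its 3′ ends, and the values are reads per gene on the mouse assembly GRCm38, given as CPM, the counts of a gene per 1000000 reads of its library after scaling.

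Both genotypes derive from the 20967 melanoma line, raised in C57BL/6 mice that carry Nras+LSL-G12D, an oncogenic *Nras* allele switched on by Cre, together with Tyr::CreERT2+/o, a tamoxifen-inducible Cre under the tyrosinase promoter of pigment cells. GR KO cells were made by delivering Cas9 protein with a guide against *Nr3c1* and are 1 clone, so loss of the receptor and descent from a single cell cannot be told apart. Tumors grew in the skin of wild-type C57BL/6 mice, whose own cells keep GR, under repeated topical cetraben cream, and whole tumors were taken. The age of the mice is not given in the sources used here. Cultures were kept in DMSO for 48 hours. Beside these 8 libraries stand 5 control-treated parental tumors and 3 parental cultures in DMSO, and, as a separate set of dishes, 3 GR KO cultures kept in the GC clobetasol propionate, for which the sources differ on the dose. Parental cultures kept in the same GC, fewer than the GR KO ones, are used below where the genotypes are compared in GC. Where tumors are compared with GC-treated cultures, these are the GR KO ones.

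GR KO tumors 1 to 5 had 18121277, 20520029, 15922706, 23643511 and 19871559 reads on genes, and GR KO cultures 1 to 3 had 18780474, 20120020 and 18633794. Over the 16 control libraries of both genotypes the totals ran from 15121571 to 26386770. In the 8 libraries, 3 reads of a gene correspond to between 0.118 and 0.214 CPM after scaling. A fold over cultures with no read is given as a bound against the mean of this floor over the 3 GR KO cultures, 0.152 CPM. Tumors and cultures also differed in how the material was prepared, so growth in the mouse and preparation cannot be told apart.

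GR is a nuclear receptor that binds DNA or other transcription factors once a GC enters the cell, and it raises genes such as *Tsc22d3* and *Fkbp5* and lowers many inflammatory ones. A cultured clone holds 1 cell type in rich medium, whereas a tumor adds vessels, fibroblasts, skin and immune cells, and exposes the melanoma cells to cytokines such as interferons and transforming growth factor β (TGF-β). Reads of a whole tumor do not say which cells made them, and in bulk RNA fewer cells of a kind and less RNA per cell cannot be told apart.

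*Nr3c1* (ENSMUSG00000024431), the edited gene, stood at 20.1, 26.4, 30.5, 32.4 and 23.03 CPM in GR KO tumors 1 to 5 and at 24.7, 20.7 and 16.2 CPM in GR KO cultures 1 to 3. The ranges overlapped, and the tumors were not called different from the cultures (log2 difference 0.35, adjusted p = 0.302 from edgeR, 3 of 5 tumors above every culture). Parental tumors had 61.7, 56.4, 42.5, 53.8 and 48.7 CPM, all 5 above the 5 GR KO tumors (log2 difference -1.02, adjusted p = 0.0313 from edgeR; exact permutation test, two-sided, p = 0.00794, the smallest that 5 against 5 allow). These tags come from the transcript's 3′ end, outside the edited stretch, and do not check the edit itself.

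Pigment-cell markers were scarce in the libraries labelled melanoma. Of 15 genes of the melanocyte lineage, 9 had no read in any of the 3 GR KO cultures (*Sox10*, *Mlana*, *Tyr*, *Tyrp1*, *Dct*, *Slc45a2*, *Oca2*, *Gpr143* and *Kit*), and 13 had at most 3 reads in each. The list summed to 4.97, 3.29 and 4.90 CPM in the cultures and to 55.2, 45.4, 50.5, 48.5 and 44.7 CPM in the tumors, with *Mitf*, the master regulator of pigment cells, as the most abundant member in both. The pigment enzyme gene *Tyr* was at 0 in the tumors too. All 6 members that could be tested were higher in tumors (32.1% of the 14152 genes tested were). Their median log2 difference was 7.72, or 3.84 with members that had no read in any culture set at their bound, against 0.21 over all genes. A gene with at most 3 reads in every culture could enter the test only through its tumor level. For such members, most of this list, higher was the only call open, so the count describes them and is no test. *Mitf* itself had 27.8, 25.5, 33.8, 21.3 and 19.2 CPM in the tumors and 4.76, 2.96 and 4.05 CPM in the cultures, which did not overlap.

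Genes of the neural crest and of dedifferentiated melanoma were uneven in culture: 5 of the 16 had no read in the 3 GR KO cultures, *S100b* and *Tfap2a* among them, and 2 members, *Axl* and *Nes*, held most of the summed level. The list summed to 1847 CPM in cultures and 3059 CPM in tumors on average (n = 3 and 5), and of 15 members tested 10 were higher in tumors and 3 lower (median 1.6). *Axl*, a receptor kinase of undifferentiated melanoma, had a mean of 1020.3 CPM in culture, and *Nes*, an intermediate filament of neural progenitors with a mean of 331 CPM there, was the most abundant in tumors, with 1658, 1248, 794, 407 and 946 CPM against 392, 269.8 and 329.9 CPM in culture. Every tumor lay above every culture for *Nes* (log2 difference 1.6). *Sox2*, a stem-cell transcription factor, was lower in all 5 tumors, at 3.77, 13.1, 5.30, 7.20 and 13.9 CPM against 25.1, 22.4 and 23.02 CPM (log2 difference -1.45). *Xist*, the RNA of X inactivation in female cells, was present in all 8 libraries, at 841, 824, 664, 402 and 840.0 CPM in the tumors and 176, 181 and 195 CPM in the cultures, and the 4 genes of the Y chromosome on the sex-linked list were at 0 in all 16 control libraries.

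Some library measures differed within and between groups. A transcript of the ribosomal RNA repeat, *Gm26924*, took 11.6, 8.97, 6.57, 0.248 and 16.3% of the reads in GR KO tumors 1 to 5 and 2.98, 2.85 and 2.45% in the cultures, with 5.55, 1.76, 1.24, 1.70 and 0.439% in the parental tumors. Tumor 4 was lowest of the GR KO tumors and tumor 5 highest, and the other 4 GR KO tumors beside tumor 4 were above every parental tumor. The 20 most abundant genes held between 11% (tumor 4) and 26.4% (tumor 5) of the reads in these 8 libraries, and mitochondrial genes between 0.587% and 1.15%. Parental tumors 1 to 5 had 1.46, 2.47, 1.25, 1.35 and 1.46% mitochondrial reads, each above the 5 GR KO tumors. The part these differences had in the results was not tested.

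Tumors and cultures differed in many genes. Of 14152 genes tested, 4537 (32.1%) were higher in the 5 tumors and 2713 (19.2%) lower, 51.2% together, by edgeR's quasi-likelihood test at an adjusted p under 0.05 and a fold change of at least 1.5. The median of all genes was 0.21 on the log2 scale, 0.02 with library totals as the scale and 0.33 with the 16 control libraries scaled together, and differences are to be read against that shift. A gene is called raised below where it was called higher and all 5 tumors lay above all 3 cultures, which held for 3862 genes (27.3%).

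The largest increases belonged to skin and immune genes that the cultures lacked. *Krt6b*, a keratin of wounded and hair-follicle epidermis, had 3663, 5079.6, 1924, 1608 and 3869 CPM in the tumors and 0 reads in all 3 cultures, at least 21229-fold higher. *Krt14*, the keratin of basal keratinocytes, had 2622, 3339, 2665, 929 and 1547 CPM and was also at 0 in culture (at least 14599-fold). *Dsp*, which links desmosomes to keratin, had 1190.4, 1076, 734, 846 and 905 CPM against 0 (at least 6247-fold). Each of the 5 tumors carried these skin transcripts, tumor 4 the least *Krt6b* and *Krt14*. *C1qb*, a complement subunit made by macrophages, reached 1671, 1870.0, 1543, 1502 and 1224 CPM from 0 (at least 10271-fold). *C1qa*, its partner subunit, reached 6515, 4966, 2844, 4066 and 4318 CPM with 1 read in culture 1 and none in the other cultures, a ratio of 269518 with a counting interval of 48373 to 10645400.0. *H2-Aa*, an MHC class II chain of antigen-presenting cells, reached 1066, 659.8, 838, 3017 and 642 CPM from 0, with tumor 4 far above the rest. *Krt17*, another keratin of hair follicles, had 1806, 1446, 608, 723 and 792 CPM in the tumors (at least 7067-fold). *Cd52*, a surface peptide of leukocytes, was even among the tumors, at 859, 974, 822, 885 and 788 CPM, and absent from the cultures (at least 5692-fold).

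Marker genes of cells that the cultures do not hold were higher in the tumors, type by type. Many of them had at most 3 reads in every culture, 4 of 9 pan-leukocyte and 12 of 18 macrophage and monocyte genes among them. Such a gene passes the filter of at least 0.5 CPM in at least 3 libraries only through the tumors. Higher was then the only call open to it, so the counts of these lists, here and below, describe and do not test. All 9 pan-leukocyte genes were higher in tumors, with a median log2 difference of 8.36 (8.30 at the bounds), and their sum went from 7.19, 4.61 and 6.77 CPM in the cultures to 3429, 2779.8, 2645, 2343 and 2271 CPM in the tumors. *Laptm5*, a lysosomal protein of blood cells, was the most abundant, and *Cd52*, *Cd48* and *Tyrobp* were at 0 in culture. Macrophage and monocyte genes summed to 11.4, 16.5 and 14.5 CPM in cultures and 16925, 16046, 12298, 16016 and 14107 CPM in tumors, 17 of 18 were higher with a median log2 difference of 12.79 (11.20 at the bounds), *Apoe*, a lipid carrier, led at 5082 CPM, and *Emr1*, *C1qb*, *Mrc1*, *Ms4a7*, *Aif1* and *Trem2* were at 0 in culture. *Cd14* was the member not called. T and NK cell genes summed to 533, 598, 517, 819 and 407 CPM in tumors against 0.362, 0.518 and 0.373 CPM in cultures. All 18 were higher, with a median log2 difference of 10.22 (6.40 at the bounds), and the chemokine gene *Ccl5* was the most abundant. In culture 16 were at 0, and 17 had at most 3 reads in each library, so for these 17 no call but higher was open.

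Smaller immune lists were higher too where they could be tested, an outcome that the filter largely fixed. All 14 neutrophil genes and 9 of 11 dendritic cell genes had at most 3 reads in every culture. So did 8 of 9 B and plasma cell genes and 6 of 7 MHC class II genes. Such genes entered the test only through the tumors. Neutrophil genes were higher in 9 of 9 tested, of 14 listed (9.34, or 6.83 at the bounds), with sums of 0.0517, 0.235 and 0.320 CPM in cultures and 619.8, 1001, 511, 375 and 1229 CPM in tumors, *S100a8* leading, and the defining marker *Ly6g* at 0 in the tumors as well. Dendritic cell genes were higher in 9 of 9 tested, of 11 listed (8.53, or 4.33 at the bounds), with sums of 498, 452 and 529 CPM and 1451, 1189.6, 1321, 1625 and 1063 CPM, mostly *Fscn1*, an actin bundler that the melanoma cells also expressed, and 7 members at 0 in culture. Of 9 B and plasma cell genes, *Cd79b* and *Ighm* alone could be tested and both were higher (8.43, or 6.18 at the bounds). *Cd79b* had 1 read over the 3 cultures and *Ighm* none, so both entered only through the tumors and no call but higher was open. That list summed to 0, 0.0471 and 0.320 CPM in cultures and 12.03, 11.05, 14.3, 12.5 and 7.10 CPM in tumors, with *Cd79a* and *Pax5* at 0 in the 5 tumors. MHC class II presentation was higher in 7 of 7 genes (14.63, or 11.64 at the bounds). *H2-Ab1*, a class II chain, led that list at 2177, 2066, 1566, 2468 and 1729.8 CPM in the tumors.

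Stroma and skin came up in the same comparison. Genes with at most 3 reads in every culture, which entered only through the tumors, were 10 of 15 endothelial and 8 of 15 fibroblast genes. They were 11 of 15 keratinocyte and 6 of 10 pericyte and smooth muscle genes. Endothelial genes were higher in 15 of 15 (8.77, or 4.98 at the bounds), from sums of 12.6, 10.9 and 14.8 CPM to 280.3, 279, 275, 314 and 290.0 CPM, led by *Plvap*, a protein of vessel-wall diaphragms, and 8 members were at 0 in culture. Fibroblast genes were higher in 15 of 15 (11.75, or 8.77 at the bounds), from sums of 681, 612 and 560.4 CPM to 5649, 5651, 6744, 8946 and 6532 CPM, led by *Col1a1*, with *Dcn*, *Lum*, *Dpt*, *Fbln1*, *Postn*, *Thy1*, *Fap* and *Pi16* at 0 in culture. Keratinocyte genes were higher in 14 of 15 (11.02, or 7.77 at the bounds), from sums of 24.6, 25.2 and 24.0 CPM to 7888, 8768, 5775, 4740.1 and 5282 CPM, led by *Krt14*, with 8 members at 0 in culture. Pericyte and smooth muscle genes split, 7 higher and 3 lower of 10 (7.24, or 3.6 at the bounds). Their sum fell from 5339.5, 3475 and 4385 CPM in cultures to 1377, 1054, 1197, 1054 and 1327 CPM in tumors, most of it 1 gene: *Acta2*, smooth-muscle actin, had 5082, 3215 and 4149 CPM in culture and 1062, 823, 951, 875 and 1049 CPM in tumors (log2 difference -2.14). The pericyte marker *Rgs5* was at 0 in culture and had 5.84, 6.88, 5.90, 20.4 and 12.1 CPM in tumors, at least 67.3-fold higher.

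Lists for muscle, fat and blood were higher in every member tested, and the Schwann cell list in part. At most 3 reads in every culture were found for 9 of 14 striated muscle, 8 of 10 adipocyte and all 5 erythroid genes. Those of them that were tested entered only through the tumors, and no call but higher was open to them. Striated muscle genes were higher in 14 of 14 (10.29, or 7.38 at the bounds), with sums of 653, 625, 777, 772 and 434 CPM in tumors and 3.47, 1.84 and 2.50 CPM in cultures, led by the actin gene *Acta1* and with 7 members at 0 in culture. Adipocyte genes were higher in 8 of 8 tested, of 10 listed (8.24, or 5.50 at the bounds), with sums of 145, 205, 166, 299 and 121 CPM and 1.81, 1.74 and 2.08 CPM, led by *Cfd*, a complement protease of fat, and 7 at 0 in culture. All 5 erythroid genes were at 0 in the 3 cultures and higher in tumors (13.04, or 8.56 at the bounds), where they summed to 198, 242, 188, 261 and 149 CPM, led by *Hba-a1*. Schwann cell genes were higher in 3 of 5 tested, of 6 listed (4.52), with sums of 20.2, 19.4, 31.4, 29.6 and 26.7 CPM and 3.52, 3.15 and 4.80 CPM, led by the myelin gene *Mbp*. *Prx*, a protein of myelinating cells, was not called and was below every culture in each tumor, at 0, 1.16, 1.53, 0.826 and 2.35 CPM against 3.26, 2.59 and 2.88 CPM. The part of these cells in the genes described next was not tested, and host and melanoma reads of 1 gene cannot be told apart in these libraries.

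**Figure D1:**
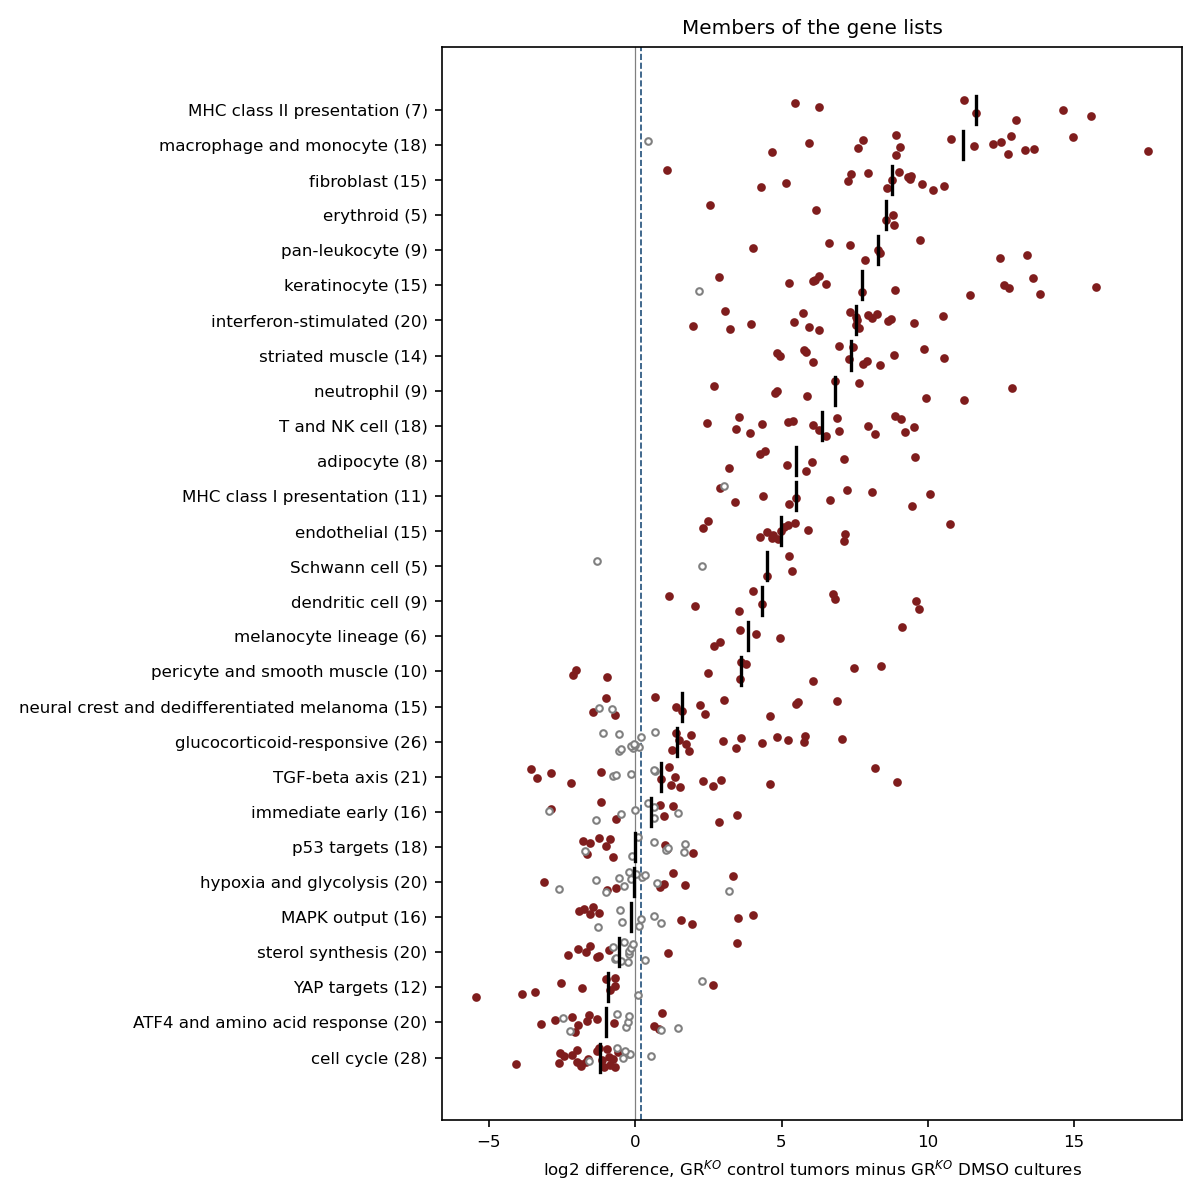
Log2 difference between GR KO tumors and GR KO cultures for tested genes of the lists, 1 point per gene. Genes without a read in any GR KO culture are at their bound, and the others at their fitted value. The B and plasma cell and the sex-linked lists, with few tested genes, are left out. All 20 interferon-stimulated genes lie above 0, and 21 of the 28 cell cycle genes were called lower.

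The genes lost in culture were chosen in a separate fit of the 11 cultures, in which 757 of 12525 genes (6.04%) were lower in the 3 GR KO than in the 3 parental DMSO cultures and 273 (2.18%) higher, 8.22% together. *Pfdn5* and *Zhx3* lay just inside the limit of 1.5-fold, at log2 differences of -0.59 each, and *Nes* and *Bop1* just outside, at -0.58 each. The count of lost genes rests partly on single libraries: it was 490 without GR KO culture 1 and 458 without GR KO culture 2. These cultures also enter the tumor comparison, so a lost gene that is raised in tumors is a description and not a test. The comparison of GR KO with parental tumors uses other libraries. The GC-treated cultures, 3 GR KO and 2 parental, were not in the contrast that chose the genes. They were part of the same fit of 11 cultures and shared its filter, scaling and estimate of spread.

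Of the 757 lost genes, 489 of the 724 that could be tested (67.5%) were raised in the 5 GR KO tumors, where 27.3% of all genes were. For 424 (56% of 757) the tumors also came back to the parental level, which here means a GR KO tumor level above the parental tumor level divided by 1.5; these are called restored, and 20.1% of the 12054 genes tested in all 3 comparisons met the same limits. Another 65 were raised but stayed further below the parental tumors, 235 were not raised, and 33 could not be tested in tumors against cultures. At the limit lay *Chst11* among the restored genes and *Maf* among those below, with log2 differences between tumors of -0.58 and -0.59. The number restored was 276 without GR KO culture 1, which is 56.3% of the lost genes then found, and 267 (58.3%) without GR KO culture 2.

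In the dish the lost genes had a median log2 difference from parental cells of -1.75. In tumors, where GR KO and parental libraries share nothing with the cultures, the 753 of them that were tested had a median of 0.04, with quartiles of -0.35 and 0.42, against -0.04, -0.51 and 0.39 over all 15919 genes tested there. Of these, 32 (4.25%) were called lower in GR KO tumors and 22 (2.92%) higher, where 0.986% and 1.26% of all genes were. These tumor calls number 358 in all (2.25% of genes) and move with each library: they numbered 70, 61, 213, 1762 and 193 without GR KO tumors 1 to 5 in turn, and 161, 88, 63, 73 and 201 without parental tumors 1 to 5. The medians by class were -2.07 in culture and 0.20 between tumors for restored genes, -3.63 and -0.95 for genes raised but below parental, -0.97 and -0.04 for genes not raised, and -5.60 and -1.28 for the 33 genes not tested in tumors against cultures, of which 18 of the 29 tested between tumors were past the limit of 1.5-fold below parental. For the restored genes and those below parental, the side on which the tumor median falls follows from the limit that defines them.

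**Figure D2:**
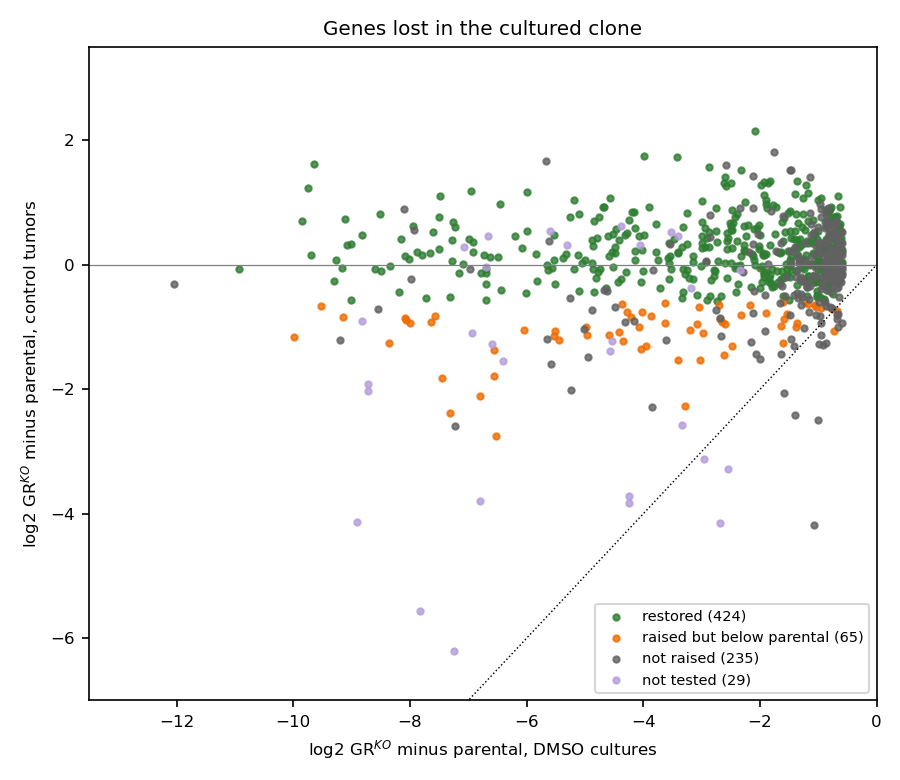
Log2 difference between GR KO and parental cells for each lost gene, in culture on the horizontal axis and in tumors on the vertical axis, coloured by class. The 424 restored genes have a median of 0.20 in tumors, where each lies above -0.58 by definition, and of the 33 genes not tested in tumors against cultures the 29 tested between tumors have a median of -1.28.

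Genes silent in culture were found in every class. In every GR KO DMSO culture 119 lost genes had at most 3 reads, and 68 of them had none; 62 of the 119 were restored, 16 raised but below parental, 18 not raised and 23 not tested. In 83 the 3 GC-treated GR KO cultures were at this floor as well, and of the 68 of these that could be tested in tumors, 58 were raised. Genes at this floor entered the test only through their tumor level, and those low in tumors were dropped. The shares raised among the 119 and the 83 were therefore largely set by the filter. Against the GC-treated cultures, 404 of the 424 restored genes were called higher in the tumors, 62 of the 65 below parental and 20 of the 235 not raised, where 30.6% of 14146 genes were. Levels were lower too in GR KO than in parental cultures kept in GC, of which the parental group is the smaller. The lost genes had a median of -0.80 there, and 474 of 757 (62.6%) passed -0.58, against -0.02 and 11.1% over all genes. Parental cells keep GR and can respond to GC, so this does not repeat the comparison in DMSO. The part of that response was not tested.

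*Lrrc32* (ENSMUSG00000090958, chr7:98489283-98502181 of GRCm38) was among the restored genes. It encodes GARP, which holds latent TGF-β on the cell surface for activation. GR KO cultures had 3.52, 1.08 and 2.88 CPM and parental cultures 24.1, 13.9 and 18.9 CPM, a log2 difference of -2.92, with no overlap. The 5 GR KO tumors had 44.6, 66.5, 91.5, 60.9 and 44.6 CPM, 24.7 times the culture mean (log2 difference 4.62, SE 0.44, adjusted p = 2.64e-06 from edgeR, 5 of 5 tumors above every culture). Parental tumors had 67.0, 53.7, 66.4, 38.2 and 66.7 CPM. The tumors of the genotypes overlapped (log2 difference 0.05; exact permutation test, two-sided, p = 0.802), with GR KO tumor 3 the highest of the 10 and parental tumor 4 the lowest. The endothelial list summed to 225, 171, 218, 219.7 and 169.8 CPM in parental tumors 1 to 5. Each was below every GR KO tumor, whose sums are given above. The fibroblast list went the other way, with means of 6704 CPM in GR KO and 8951 CPM in parental tumors. The part of these or other host cells in the *Lrrc32* levels was not tested.

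Other members of the TGF-β axis moved in both directions. Of 22 listed genes 21 were tested; 11 were higher in GR KO tumors than in cultures and 5 lower, with a median of 0.87, and *Smad6* was too low to test. All 4 lost members were restored: *Lrrc32*, the ligand genes *Tgfb1* and *Tgfb2*, and *Tgfbi*, a matrix protein induced by TGF-β. *Tgfb2* had 10.9, 10.9 and 9.75 CPM in GR KO cultures and 79.0, 119, 74.9, 14.04 and 50.5 CPM in tumors, with tumor 4 nearest the cultures yet above them. *Tgfbi* went from 0.828, 1.08 and 1.599 CPM to 305, 276, 471, 363 and 305 CPM, a log2 difference of 8.18, without overlap. *Tgfb1* went from 18.9, 12.2 and 15.2 CPM to 30.5, 67.2, 49.8, 34.7 and 42.2 CPM. *Ltbp2*, which binds matrix microfibrils, was almost absent in both sets of cultures and stood at 35.8, 47.6, 42.8, 61.7 and 37.8 CPM in the tumors. *Ltbp3*, which carries latent TGF-β into the matrix, rose from 103, 101 and 121 CPM to 881, 526, 524, 328 and 464 CPM in every tumor. *Ltbp1*, another carrier of latent TGF-β, was lower in every tumor, at 33.9, 24.5, 33.0, 53.02 and 42.9 CPM against 168, 189 and 147 CPM in cultures, and so was *Id3*, an inhibitor of helix-loop-helix factors, at 13.2, 18.5, 31.4, 17.6 and 24.5 CPM against 148, 226 and 81.8 CPM. *Bambi*, a decoy receptor of the family, had the largest fitted fall of the list, with 0, 0.116, 0.199, 1.97 and 1.74 CPM in tumors and 3.93, 21.9 and 3.14 CPM in cultures (log2 difference -3.57, adjusted p = 0.0161 from edgeR). Culture 2 set much of that level: for *Bambi* the log2 difference was -2.17 without GR KO culture 2 (adjusted p = 0.248), and against the GC-treated cultures the adjusted p was 0.0664, neither of them called. *Pmepa1*, a feedback inhibitor of the pathway and the most abundant member, had 1645, 1811, 1572, 699 and 1556 CPM in tumors and 655, 657 and 626 CPM in cultures, and tumor 4 lay closest to the cultures.

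The 10 restored genes with the largest loss, among those with at least 10 CPM in parental cultures, were close to absent in the cultured clone. *Igfbp5*, which binds insulin-like growth factors, had no read in the 3 GR KO cultures, 15.01, 11.1 and 14.1 CPM in the parental ones and 61.4, 64.7, 57.0, 112 and 66.5 CPM in the GR KO tumors, at least 476-fold above culture. Parental tumors had 64.0, 93.5, 74.2, 81.7 and 56.03 CPM, and the genotypes overlapped. *S100a16*, a calcium-binding protein, had 0, 0.329 and 0 CPM in GR KO cultures, 49.4, 50.01 and 46.0 CPM in parental ones and 209, 162, 147, 161 and 136 CPM in GR KO tumors, with parental tumors at 158, 113, 181, 170.1 and 206 CPM. Here too the tumors of both genotypes shared 1 range and the cultures shared none. *Kcnab2*, a potassium channel subunit, had 27.3, 36.5, 18.9, 40.7 and 43.8 CPM in tumors and a single read in the 3 cultures, a ratio of 1985 with a counting interval of 356 to 78421. *Piezo2*, a channel opened by touch, had 223, 197, 129, 43.7 and 153 CPM in tumors and 0, 0.235 and 0 CPM in cultures, tumor 4 the lowest. *Cd93*, a receptor of endothelial and stem cells, had 228, 238, 197, 133 and 286 CPM and 0.673, 0.518 and 1.81 CPM, 216 times as much in tumors.

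*Ifi27l2a*, an interferon-induced mitochondrial protein, had 284, 346, 294, 350.1 and 244 CPM in GR KO tumors, 0, 0.0941 and 0.266 CPM in GR KO cultures and 184, 145, 75.9, 178 and 75.1 CPM in parental tumors. The 5 GR KO tumors lay above the 5 parental tumors (log2 difference 1.18; exact permutation test, two-sided, p = 0.00794, the smallest that 5 against 5 allow), but the fit over all genes did not call this difference (adjusted p = 0.0830 from edgeR). The matrix and signalling genes *Emilin1*, *Fstl3*, *Ptges* and *Ptpn7* complete the 10. *Fstl3*, a secreted inhibitor of activin, had 60.9, 60.1, 27.5, 34.8 and 64.6 CPM in tumors against 0.310, 0.376 and 0.533 CPM in cultures, 122 times as much. *Ptges*, which makes prostaglandin E, had 20.4, 20.2, 29.3, 20.1 and 12.5 CPM against 0, 0.329 and 0.0533 CPM. *Emilin1*, an elastic-fibre protein, was uneven, with 2.35, 5.61, 17.6, 5.51 and 0.842 CPM in tumors 1 to 5 against 0, 0 and 0.266 CPM, and its lowest tumor was number 5.

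**Figure D3:**
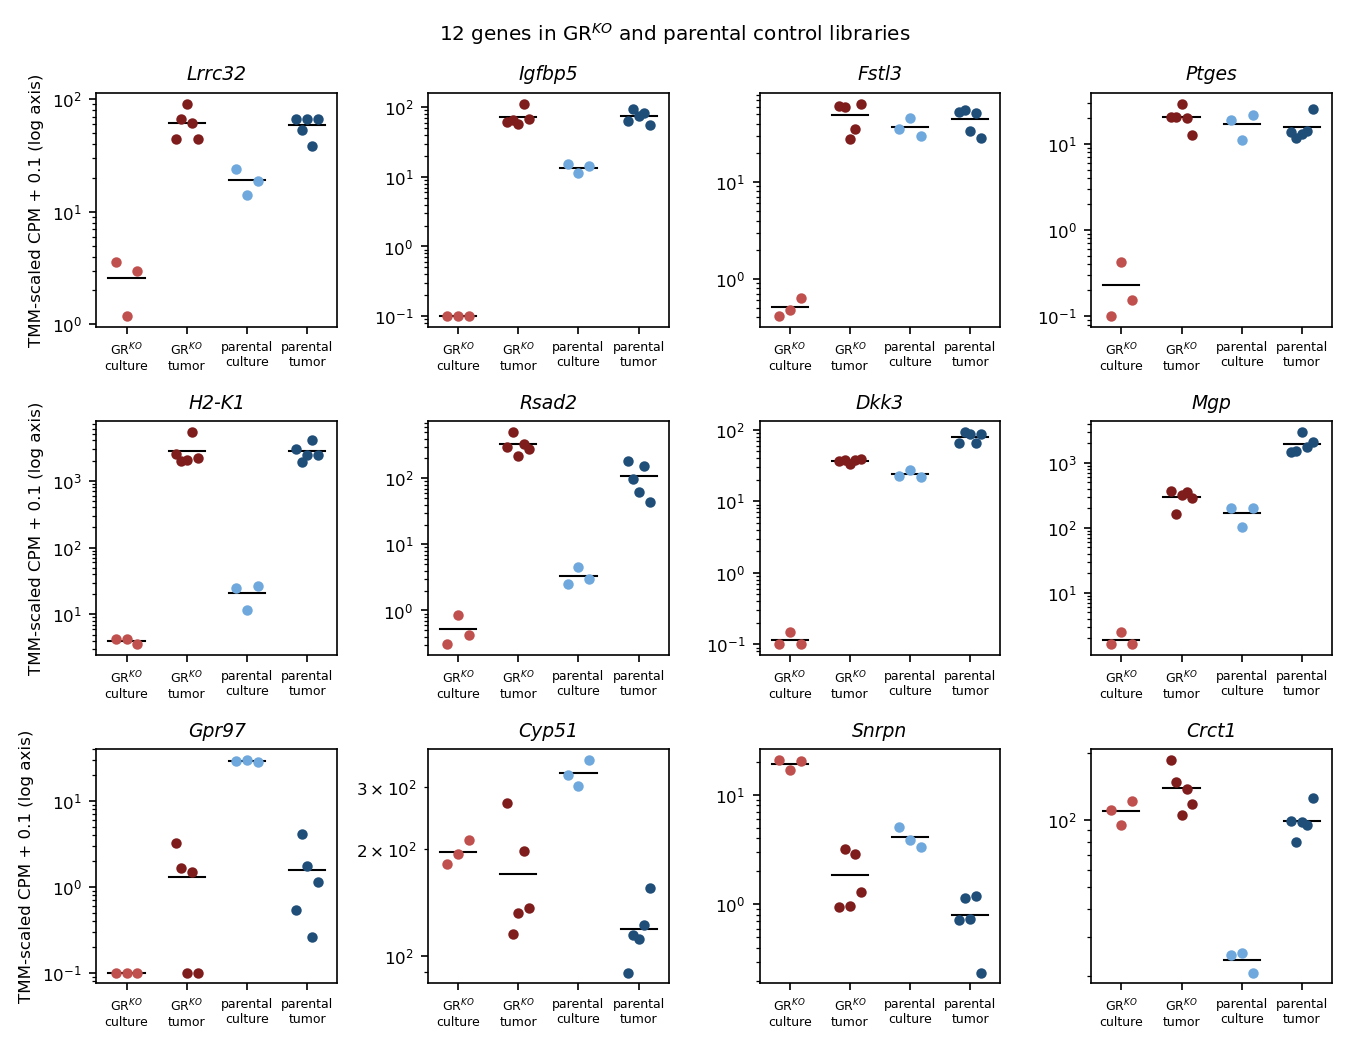
CPM of 12 genes on a log scale in the 5 GR KO tumors, 3 GR KO cultures, 5 parental tumors and 3 parental cultures, 1 point per library. For *Igfbp5* the GR KO cultures are at 0 while the tumors of both genotypes share a range, and for *Dkk3* the GR KO tumors lie below the parental tumors.

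Restored genes included many that were not higher in parental tumors than in parental dishes. This is partly built in, since high parental cultures helped choose the lost genes. Restored genes also had to come near the parental level in tumors. The counts below describe these genes and do not test them, and the same share over all raised genes is not given. Among 343 lost genes tested in both comparisons that parental tumors raised, 335 were raised in GR KO tumors too; among 232 that did not differ in the parental line, 148 were; and among 149 that fell in parental tumors, 6 were (34.3% of 14662 genes were higher and 20.3% lower in parental tumors, 54.6% together). For 139 of the 424 restored genes (32.8%) parental tumors were not called higher than parental cultures. Their medians were 1.82 for GR KO tumors over cultures and 0.16 for the parental line, and 0.26 between tumors of the genotypes. *Ptpn7*, a phosphatase that acts on MAP kinases, belongs here: GR KO cultures had 0.207, 0.141 and 0.160 CPM, parental cultures 49.5, 44.3 and 61.0 CPM, GR KO tumors 14.03, 11.3, 10.5, 43.7 and 4.87 CPM and parental tumors 22.9, 25.5, 19.5, 32.7 and 10.8 CPM. It went up in GR KO tumors (6.57) and down in parental ones (-1.25), and the tumors met in between. *Ifitm3*, an antiviral membrane protein chosen after its values were seen, had means of 1865 CPM in parental and 277 CPM in GR KO cultures, and of 2662 CPM in GR KO and 1393 CPM in parental tumors. Its log2 difference between tumors and cultures was 3.25 in GR KO and -0.46 in parental cells.

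A smaller set came up but not all the way. These genes were grouped by a tumor level below the parental one. P-values on that gap for genes of this group, here and below, describe it and are not a separate test. *Dkk3*, a secreted protein of the Dickkopf family, had 1 read over the 3 GR KO cultures, 22.6, 27.5 and 21.8 CPM in parental cultures and 36.6, 38.1, 33.0, 37.8 and 38.67 CPM in GR KO tumors, a ratio to culture of 2185 with a counting interval of 392 to 86302. Parental tumors had 65.8, 94.0, 87.8, 65.3 and 88.2 CPM, all above the 5 GR KO tumors (log2 difference -1.15, adjusted p = 0.00265 from edgeR). *Mgp*, an inhibitor of matrix calcification, was the widest of these gaps, with 1.50, 2.35 and 1.55 CPM in GR KO cultures, 369, 163, 318, 352 and 285 CPM in GR KO tumors and 1461, 1493, 2989, 1737 and 2072 CPM in parental tumors. The highest GR KO tumor was below the lowest parental tumor (log2 difference -2.75, adjusted p = 0.000236 from edgeR). *Col6a3*, a collagen VI chain, had 210.4, 180.5, 358, 1108 and 194 CPM in GR KO tumors and 1.14, 2.59 and 1.33 CPM in cultures; tumor 4 stood within the parental range of 364 to 1135 CPM and the other 4 below it, and the difference between genotypes was not called (adjusted p = 0.300 from edgeR). Matrix genes such as *Mgp* and *Col6a3* are also made by fibroblasts. The fibroblast list summed to 8610.2, 9118, 8683, 9404 and 8938 CPM in parental tumors 1 to 5 and to 5649, 5651, 6744, 8946 and 6532 CPM in GR KO tumors 1 to 5, with tumor 4 within the parental range and the other 4 below it. The part of these cells in the gaps between tumors was not tested.

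The remaining genes of this kind that the naming rule picked were *Gpx7*, *Eml2*, *Trp53i11*, *Zfp618*, *Cp* and *Sardh*. *Zfp618*, a zinc-finger protein, had 11.04, 5.15, 6.10, 5.74 and 4.75 CPM in GR KO tumors, 0.103, 0.376 and 0.639 CPM in cultures and 12.6, 22.3, 14.1, 11.4 and 13.7 CPM in parental tumors, with no overlap between tumors (adjusted p = 0.0331 from edgeR). *Cp*, the copper carrier ceruloplasmin, had 15.3, 10.4, 18.1, 22.7 and 23.3 CPM, 1.86, 1.36 and 1.07 CPM and 40.7, 40.8, 11.98, 34.1 and 21.4 CPM in the same order, and the tumors of the genotypes overlapped and were not called different (adjusted p = 0.138 from edgeR). *Gpx7*, a peroxidase of the endoplasmic reticulum, had 8.54, 20.8, 12.5, 12.3 and 18.04 CPM in GR KO tumors and 1 read over the cultures, and *Sardh*, a sarcosine-degrading enzyme, 15.6, 26.8, 13.9, 11.1 and 10.9 CPM against 2.59, 1.51 and 0.853 CPM. For each of these 4 genes every GR KO tumor was above every GR KO culture.

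*Gpr97*, an adhesion receptor best known from neutrophils, had the largest loss of all lost genes that reached 10 CPM in parental cultures and did not come back. It was at 0 in the 3 GR KO cultures, at 29.6, 30.0 and 28.1 CPM in parental cultures, and at 3.13, 1.56, 0, 1.38 and 0 CPM in GR KO tumors, where tumors 3 and 5 had no read. Parental tumors had 0.434, 4.07, 1.66, 0.157 and 1.04 CPM, so the parental line was also far lower in tumors than in the dish (-4.34). The test called it higher in GR KO tumors (adjusted p = 0.0330 from edgeR, 3 of 5 tumors above the cultures), a call that was lost when any 1 of the 3 cultures was left out or replicate numbers were fitted as a block, with adjusted p up to 0.0841. Many of the 235 lost genes not raised were also lower in parental tumors: their median was 0.28 in GR KO and -0.94 in parental tumors, 143 fell in parental tumors, and 184 were within 1.5-fold of the parental tumors or above. For 122 of these 184 the gap closed while parental tumors fell. A fall in parental tumors is partly built in for lost genes, since high parental cultures helped choose them.

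Antigen presentation and interferon genes were among the groups restored in full. Of 11 MHC class I genes, 10 were higher in GR KO tumors (median 5.50), and all 5 lost members were restored: *H2-K1*, *Tap1*, *Tapbp*, *Psmb8* and *Nlrc5*. *H2-K1*, a class I heavy chain, had 4.14, 4.19 and 3.46 CPM in GR KO and 25.2, 11.7 and 26.5 CPM in parental cultures. In tumors it had 2512, 1974, 2065, 5402 and 2153 CPM in GR KO and 3026, 1926, 2412, 4119 and 2440.3 CPM in parental cells, with tumor 4 the highest of the 10 and the rest mixed. *B2m*, the light chain shared by class I molecules, was not lost and rose from 890.3, 894 and 1076 CPM to 7493, 8963, 8285, 15588 and 10971 CPM. *Nlrc5*, the transcriptional activator of class I genes, was at 0 in GR KO cultures, at 1.75, 2.32 and 1.52 CPM in parental cultures and at 7.83, 26.6, 21.2, 43.4 and 16.8 CPM in GR KO tumors. *Psmb8*, an immunoproteasome subunit, had 0.0517, 0.0941 and 0.213 CPM, 5.69, 5.56 and 7.73 CPM and 66.6, 77.9, 148, 296 and 86.1 CPM in the same 3 groups. The list's summed level was 1054, 1020.1 and 1213 CPM in the cultures and 13874, 14920.3, 13725, 25079.9 and 15878 CPM in the tumors.

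All 20 interferon-stimulated genes were higher in the GR KO tumors (median 7.60, or 7.55 at the bounds) and in the parental tumors (median 4.77). The 7 lost members were all restored, *Ifit1*, *Ifit3*, *Rsad2*, *Usp18*, *Bst2* and *Rtp4* among them. *Rsad2*, the antiviral enzyme viperin, had 0.207, 0.753 and 0.320 CPM in GR KO cultures, 2.39, 4.40 and 2.87 CPM in parental cultures, 296, 508, 219, 330.5 and 275 CPM in GR KO tumors and 182, 96.3, 61.1, 155 and 44.5 CPM in parental tumors. The GR KO tumors were above the parental ones without overlap (log2 difference 1.58; exact permutation test, two-sided, p = 0.00794, the smallest that 5 against 5 allow), but the fit over all genes did not call the difference (adjusted p = 0.0689 from edgeR). Pan-leukocyte genes also summed to more in each GR KO tumor, as given above, than in parental tumors 1 to 5, which had 1929, 1849.6, 1569.8, 1746 and 1668 CPM, and their part in this gap was not tested. *Bst2*, which tethers budding viruses and was the most abundant member, had 7.14, 5.88 and 5.65 CPM in GR KO and 16.3, 15.04 and 16.3 CPM in parental cultures, and 340.0, 245, 221, 449.7 and 433 CPM in GR KO tumors. *Cxcl9*, a chemokine that draws T cells, was at 0 in all 6 DMSO cultures and had 141, 272, 146, 395 and 155 CPM in GR KO and 390.4, 333, 212, 379.6 and 135 CPM in parental tumors. Macrophage and lymphocyte markers rose in the same tumors, as given above, and their part in this rise was not tested.

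The promoters of the lost interferon and class I genes were read for the letters GAAA, any 2 bases and GAAA again, the core of the interferon-response element, on both strands of the 300 bases from 250 before to 50 after each gene's start in RefSeq on GRCm38.p6, a motif chosen after the data were seen. Of the 12 genes 8 had a promoter in the table, and 4 held the letters: *Bst2*, *Ifit1*, *Ifit3* and *Rsad2*. Among all 9523 promoters matched, 344 (3.61%) held them. The palindrome bound by GR, AGAACA, any 3 bases and TGTTCT, was in 1 of the 9523 and the E-box letters CANNTG in 66.1%, searched the same way. With 66.7% of the 12 genes, 71.7% of the lost genes and 76.0% of all tested genes matched, a comparison of these shares is void for each set. A match is not a binding site by itself, and the letters only describe the sequences shown.
The 4 promoters are shown because they held the letters. Those of *H2-K1*, *Psmb8*, *Tap1* and *Tapbp*, restored as well, lacked them and are not shown. Sequences run 5′ to 3′ on the strand of the gene, with the matched letters or their reverse complement in capitals. *Bst2* is at chr8:71537423-71537722 on the minus strand with 2 matches, and *Ifit1* at chr19:34640639-34640938 on the plus strand with 2. *Ifit3* is at chr19:34583279-34583578 on the plus strand with 2, and *Rsad2* at chr12:26456403-26456702 on the minus strand with 1.
Bst2: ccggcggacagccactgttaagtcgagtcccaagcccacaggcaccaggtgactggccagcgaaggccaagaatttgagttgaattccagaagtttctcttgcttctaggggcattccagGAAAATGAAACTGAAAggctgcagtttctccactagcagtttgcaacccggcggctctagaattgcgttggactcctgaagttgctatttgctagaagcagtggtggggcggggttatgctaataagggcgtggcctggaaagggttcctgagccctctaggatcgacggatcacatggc
Ifit1: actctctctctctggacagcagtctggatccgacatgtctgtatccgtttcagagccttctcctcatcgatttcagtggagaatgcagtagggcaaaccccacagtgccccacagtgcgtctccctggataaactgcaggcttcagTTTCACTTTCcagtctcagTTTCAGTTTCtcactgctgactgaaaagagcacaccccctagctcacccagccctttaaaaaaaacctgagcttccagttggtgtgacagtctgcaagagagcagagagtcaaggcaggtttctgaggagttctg
Ifit3: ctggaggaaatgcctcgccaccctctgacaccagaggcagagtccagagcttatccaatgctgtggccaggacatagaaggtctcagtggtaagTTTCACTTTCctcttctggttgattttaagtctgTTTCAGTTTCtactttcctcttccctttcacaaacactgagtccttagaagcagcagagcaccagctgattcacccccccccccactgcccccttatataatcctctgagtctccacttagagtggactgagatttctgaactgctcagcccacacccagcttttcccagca
Rsad2: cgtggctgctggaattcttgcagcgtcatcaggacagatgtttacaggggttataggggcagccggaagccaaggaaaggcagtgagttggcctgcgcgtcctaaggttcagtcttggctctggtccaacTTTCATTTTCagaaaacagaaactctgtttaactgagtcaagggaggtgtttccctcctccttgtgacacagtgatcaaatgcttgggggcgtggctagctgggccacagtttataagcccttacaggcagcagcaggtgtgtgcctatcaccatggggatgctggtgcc

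Of 15 fibroblast genes 9 were tested between the cultures of the genotypes, 6 of them were lost and 3 not called. Of the 6, 5 were restored: *Col1a1*, *Dcn*, *Fbln1*, *Postn* and *Pdpn*. *Col1a1*, a chain of type I collagen, had 1.604, 2.26 and 1.12 CPM in GR KO and 45.7, 25.9 and 27.6 CPM in parental cultures, 1710.3, 1783, 1768, 2586 and 2012 CPM in GR KO tumors and 1859, 2125, 2147, 2054 and 2187 CPM in parental tumors. Its tumor levels overlapped between genotypes and were about the same in all 10 tumors next to the gap in culture. *Pdpn*, a mucin-like protein of migrating cells, had 89.9, 125 and 94.3 CPM in parental cultures, 0.776, 1.74 and 2.29 CPM in GR KO cultures and 422, 467, 332, 406 and 416 CPM in GR KO tumors. *Dcn*, a collagen-binding proteoglycan, was at 0 in GR KO cultures and had 156, 214, 194, 291 and 286 CPM in tumors. *Col3a1*, a chain of type III collagen, stayed below: 1071, 1087, 1406, 2082 and 1622 CPM in GR KO against 2489.8, 3202, 2885, 2989 and 2592 CPM in parental tumors, without overlap (log2 difference -1.0, adjusted p = 0.0252 from edgeR). The summed fibroblast list was below every parental tumor in 4 of the 5 GR KO tumors as well, and its part in this gap was not tested. Of the 424 restored genes 13 (3.07%) are on any of the 17 marker lists, as are 14 of the 757 lost genes (1.85%) and 50 of the 12525 tested in cultures (0.399%), *Fcer1g*, *Ccl5*, *S100b*, *Sox9* and *Egfl7* among the 13. Of the 205 genes on these lists 155 were too low in cultures to be tested there and so could not be among the lost, which limits these shares in advance. *Fcer1g*, a signalling adaptor of myeloid cells, was made by the parental melanoma cells themselves, at 273, 289.5 and 220.5 CPM in culture, by the GR KO cultures at 6.31, 4.33 and 6.13 CPM, and stood at 602, 647, 621, 431 and 471 CPM in GR KO tumors.

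Genes that GC is known to induce were mixed. Of 28 listed, 26 were tested, 15 were higher in GR KO tumors and 11 not called (median 1.44). Of 7 lost members 3 were restored (*Rgs2*, *Ctla2a* and *Deptor*) and 4 stayed below parental tumors (*Cebpd*, *Scara5*, *Cp* and *Ccdc3*). *Ctla2a*, a protease inhibitor, had 1.19, 0.518 and 1.49 CPM in GR KO cultures, 16.8, 21.3 and 18.3 CPM in parental cultures and 60.6, 55.2, 65.8, 46.5 and 64.9 CPM in GR KO tumors. *Ccdc3*, a secreted factor, was at 0 in GR KO cultures and had 3.20, 10.9, 4.97, 16.7 and 6.49 CPM in GR KO and 53.2, 47.5, 39.2, 44.4 and 32.1 CPM in parental tumors. The tumors of the genotypes did not overlap for *Ccdc3* (adjusted p = 0.00265 from edgeR). *Dpep1*, a dipeptidase that neither set of cultures expressed, had 25.7, 21, 18.6, 18.4 and 17.1 CPM in GR KO and 12.1, 14.3, 11.6, 10.3 and 7.57 CPM in parental tumors, at least 133-fold above the GR KO cultures. *Mt2*, a metallothionein gained in the clone, had 257, 325, 321, 412 and 267 CPM in GR KO tumors and 339, 369 and 321 CPM in cultures, which overlapped.

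In sterol synthesis the gap between genotypes closed mostly from the parental side. Of its 20 genes 14 were lost in the clone, with a median of -0.80 over the list, and 2 were restored, *Dhcr7* among them. In GR KO tumors 2 genes were higher, 7 lower and 11 not called against culture (median -0.56), whereas in parental tumors 17 were lower and 3 not called (median -1.57). Between the tumors of the genotypes the median of the list was 0.23. For the lost genes of this list a parental fall is partly built in, since high parental cultures helped choose them. *Mvd*, which makes isopentenyl diphosphate, had 148, 100.2 and 148 CPM in GR KO and 361, 558 and 318 CPM in parental cultures, and 117, 153, 70.8, 93.8 and 171 CPM in GR KO and 131, 109, 89.3, 68.7 and 71.0 CPM in parental tumors. The tumors of both genotypes overlapped, and all 5 parental tumors lay below the parental cultures. *Cyp51*, the sterol demethylase, had 182, 194 and 213 CPM and 324, 301 and 357 CPM in the cultures of the genotypes and 270.4, 115, 132, 198 and 137 CPM and 89.7, 115, 112, 122 and 156 CPM in their tumors.

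Genes gained in the clone were lower or not called in most cases. Of 273 gained genes 270 were tested in tumors against cultures; 133 were lower in GR KO tumors, where 19.2% of all genes were, and 23 were raised. A fall is partly built in, since the high levels of the same cultures chose these genes, and between the tumors of the genotypes their median was 0.06. *Snrpn*, an imprinted splicing-protein gene, had 20.6, 16.6 and 19.9 CPM in GR KO cultures, 4.98, 3.79 and 3.222 CPM in parental ones and 0.854, 3.07, 0.862, 2.79 and 1.20 CPM in GR KO tumors. *Fgf7*, a growth factor for keratinocytes, had 25.4, 26.2 and 24.3 CPM, 4.46, 6.42 and 5.98 CPM and 8.33, 2.78, 1.59, 2.71 and 3.07 CPM in the same groups. Both were lower in every tumor than in any GR KO culture, and *Fgf7* overlapped between the tumors of the genotypes (0.30). *Sobp* and *Crct1* were not called: *Crct1*, an epidermal gene, had 111, 94.6 and 122 CPM in GR KO cultures and 186, 148, 105, 138 and 118 CPM in tumors, and parental cells went from 24.7, 25.4 and 20.6 CPM to 99.3, 79.7, 97.5, 95.2 and 125 CPM.

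Targets of the growth regulator YAP included 3 gained genes, and 9 of the 12 were lower in GR KO tumors, *Tgfb2* was higher, and the median was -0.93. *Ankrd1*, a stretch-responsive cofactor, had 886, 1229.9 and 829 CPM in GR KO cultures, 394, 348 and 437 CPM in parental cultures, 40.8, 47.4, 47.9, 146 and 60.8 CPM in GR KO tumors and 62.9, 96.7, 53.9, 119 and 72.0 CPM in parental tumors. The gap of the dish (log2 difference 1.33) was gone in tumors (-0.28), with tumor 4 the highest of the 5. *Amotl2*, a junction protein of the same pathway, fell from 73.0, 88.5 and 66.9 CPM to 2.85, 7, 11.6, 12.5 and 1.92 CPM, and *Crim1*, a growth factor anchor, from 217, 253 and 239 CPM to 39.7, 45.6, 39.3, 29.8 and 50.8 CPM.

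Proliferation genes were lower in tumors. Of 28 cell cycle genes 21 were lower in GR KO tumors than in cultures and 7 not called, with a median of -1.19, and in parental tumors the median was -1.10. *Plk1*, a mitotic kinase, had 661, 512 and 670.1 CPM in cultures and 283, 279, 248, 255 and 341 CPM in tumors, and *Rrm2*, a subunit of ribonucleotide reductase, 116, 118 and 112 CPM and 9.40, 22.7, 20.8, 25.1 and 20.99 CPM. Neither overlapped. *Cdk1*, the kinase that starts mitosis, fell furthest, from 278, 341 and 186 CPM to 8.19, 4.98, 19.96, 32.2 and 14.2 CPM (log2 difference -4.09). Its cultures were uneven in both genotypes, with GR KO culture 2 highest and culture 3 lowest, and parental cultures at 190.5, 30.6 and 253 CPM. GC-treated GR KO cultures 1 to 3 had 5803, 2619 and 717 reads. Tumors hold cells of other kinds, as the marker lists show, and their part in these lower levels was not tested. Amino acid genes driven by ATF4 were also lower in 9 of 20 and higher in 3 (median -1.0). *Phgdh*, the entry enzyme of serine synthesis, had 67.8, 68.6 and 47.4 CPM in cultures and 2.49, 0.983, 14.7, 9.87 and 4.87 CPM in tumors, and *Psat1*, the next enzyme, 399.6, 345 and 413 CPM and 126, 85.9, 105, 82.6 and 103 CPM, each without overlap. *Ddit4*, a stress-induced inhibitor of mTOR, rose in all 5 tumors, from 35.2, 36.2 and 40.0 CPM to 67.1, 56.9, 76.1, 62.7 and 95.5 CPM.

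The genes with the largest falls include several whose cultures disagreed. *Dlk2*, a Notch ligand relative, had 14.4, 11.4 and 10.3 CPM in cultures and 0, 0, 0.199, 0.118 and 0 CPM in tumors, and *Cdh26*, a cadherin, 18.4, 11.6 and 16.3 CPM and 0, 0, 0, 0.708 and 0 CPM. Both were near absent from tumors, with 1 tumor setting the *Cdh26* level. *Siglecg*, an inhibitory sialic-acid receptor, had 84.0, 67.1 and 88.7 CPM and 3.63, 2.31, 0.530, 4.80 and 0.421 CPM, with even cultures. *Tomm40*, a pore of the mitochondrial membrane, had 84.5, 136 and 62.8 CPM and 2.56, 2.60, 3.91, 6.10 and 0.301 CPM. *Bag2*, a cofactor of Hsp70, had 15.4, 29.5 and 9.27 CPM and 0.427, 1.10, 0.729, 0.826 and 0.421 CPM. For *Tomm40* and *Bag2*, culture 2 was highest and culture 3 lowest. *Gapdh*, the glycolytic enzyme, had 158, 307 and 52.3 CPM in cultures and 4.56, 2.20, 8.62, 5.66 and 4.45 CPM in tumors, but reads of this gene also match many near-identical copies in the genome, so its level is uncertain. Among 2445 well-expressed genes lower in tumors, 163 (6.67%) differed 2-fold or more between the 3 cultures, in 151 of them with culture 2 highest and culture 3 lowest, against 10 of 1492 (0.670%) among genes higher in tumors, 124 of 3625 (3.42%) among genes not called and 297 of 7562 (3.93%) over all well-expressed genes.

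Glycolysis, p53, MAPK and immediate early genes had no common direction. Over all genes tested 32.1% were higher and 19.2% lower, and the counts of every list are to be read against these shares. Hypoxia and glycolysis genes were higher in 5 of 20 and lower in 3 (median -0.06): *Pfkfb3*, a switch of glycolytic flux, had 3.62, 4.47 and 7.83 CPM in cultures and 53.6, 45.0, 58.9, 80.5 and 34.2 CPM in tumors, and *Adm*, the vasodilator adrenomedullin, 87.8, 106 and 143 CPM and 2.28, 9.08, 8.95, 24.1 and 20.3 CPM. Each separated all tumors from all cultures. Targets of p53 were higher in 3 of 18 and lower in 7 (median -0.01). *Cdkn1a*, the cell cycle inhibitor p21, had 459, 395 and 431 CPM in cultures and 250.4, 306, 274, 210.2 and 229 CPM in GR KO tumors, all above the parental tumors at 137, 104, 129.5, 96.4 and 142 CPM (adjusted p = 0.0136 from edgeR), and *Trp53inp1*, a stress protein, rose from 4.35, 5.18 and 4.21 CPM to 15.2, 17.0, 17.9, 25.5 and 15.8 CPM. MAPK output genes were higher in 4 of 16 and lower in 5 (median -0.15). Its 2 lost members, *Etv5* and *Etv1*, transcription factors downstream of the kinase ERK, were restored. *Etv5* had 45.1, 41.2 and 55.6 CPM in GR KO cultures, 80.5, 95.6 and 82.0 CPM in parental cultures and 1244, 967, 764, 364 and 597 CPM in GR KO tumors, while *Ccnd1*, cyclin D1, fell from 1834, 2034 and 1686 CPM to 1064, 781, 641, 628 and 900.5 CPM. *Etv5* was higher and *Ccnd1* lower in each tumor than in any GR KO culture. Immediate early genes were higher in 5 of 16 tested, of 17 listed, and lower in 3 (median 0.55). *Klf4*, a zinc-finger transcription factor and the most abundant of them, was not called, at 284, 222 and 267 CPM in cultures and 428, 542, 192, 179.7 and 434 CPM in tumors.

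A direct test of the difference between genotypes fitted the tumor-against-culture effect in both lines at once. It called 768 of 15468 genes (4.97%), 681 with the higher log2 value in GR KO cells (4.4%), which can be a larger rise or a smaller fall, and 87 with the lower (0.562%). *Cyp51*, a lost gene, is 1 of the 681, at -0.22 in GR KO and -1.49 in parental cells. Lost genes made up 394 of the calls, all with the higher value in GR KO cells, which is 51.3% of the calls and 52.1% of the 756 lost genes tested; a higher value is partly built in, since the low cultures chose these genes. Gained genes made up 28, and of the other 346, 287 had the higher value in GR KO cells. The total was 450 without GR KO culture 1, 383 without GR KO culture 2, 442 without parental culture 2 and 2223 without GR KO tumor 4. Among interferon-stimulated genes 10 of 20 were called, all with the higher value in GR KO cells. Among class I genes 6 of 11 were called, and among sterol synthesis genes 7 of 20. These lists hold 7, 5 and 14 lost genes in the same order, for which a higher value is partly built in. How many of the calls fall on lost genes is not given, so the counts describe and do not test. For *Irf7*, the interferon-inducible transcription factor, which was not lost, the effect was 7.64 in GR KO and 4.78 in parental cells, with 193, 376, 313, 313 and 241 CPM in GR KO tumors.

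Lost genes were not spread evenly over the genome. On chromosome 15 84 of 475 tested genes were lost (17.7%), against 673 of 12050 elsewhere (5.59%), and 3 were gained (0.632%). Of the 84, 35 were restored and 43 were not raised. The shift covered the chromosome and not just the called genes: 358 expressed genes there had a median log2 difference of -0.34 between GR KO and parental DMSO cultures, and 81.0% of them were below 0. Each GR KO culture showed it, with medians of -0.34, -0.37 and -0.31 against the parental mean, while the parental cultures, each against the others, stood between -0.04 and 0.06. In windows of 20 Mb the median ran from -0.17 to -0.38 along the chromosome. Between GR KO and parental cultures in GC the median was -0.31. No other chromosome came near: the next lowest median was -0.08, on chromosome 6. In whole tumors no such shift was seen, with a median of 0.07 between genotypes. GR KO tumors 1 to 5 stood at 0.13, 0.13, 0.06, 0.01 and 0.10. Medians of the other chromosomes between tumors ran from -0.15 on chromosome 3 to 0.09 on chromosome 7. Whole tumors also hold host cells, and their part in the chromosome 15 median was not tested. Among the genes of chromosome 15 that were lost and not raised, chosen after their values were seen, was *Lgals1*, galectin 1, with 8842, 7252 and 9065 CPM in GR KO cultures, 13332, 18840.4 and 12508 CPM in parental cultures, 7742, 7720.1, 6006, 3811 and 7663 CPM in GR KO tumors and 5899, 4001, 5008, 3378 and 5119.6 CPM in parental tumors. The gap in culture was gone in tumors, where the GR KO level was similar to or above the parental one.

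**Figure D4:**
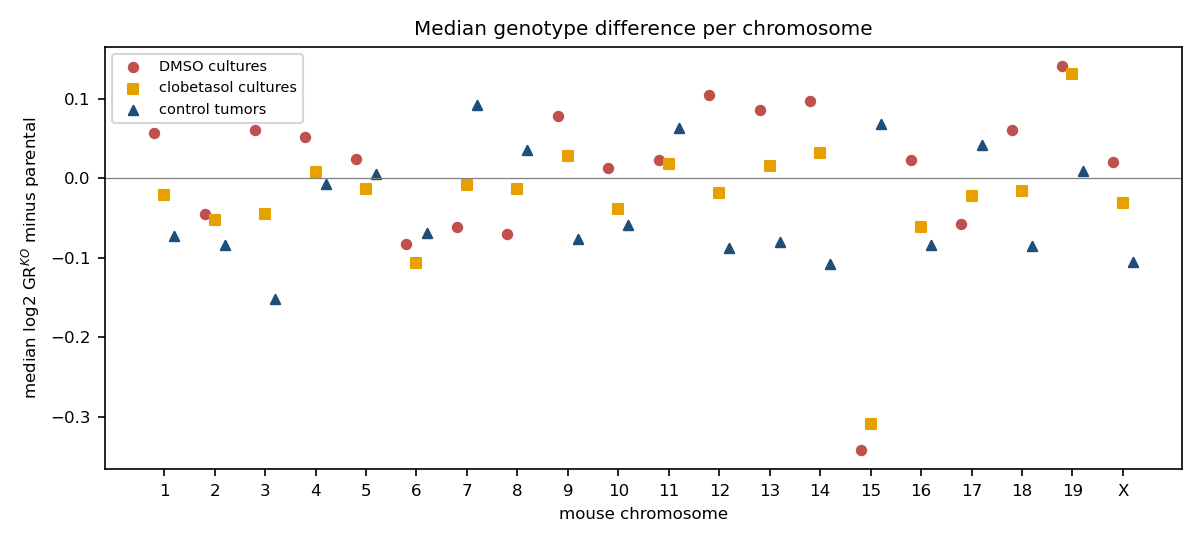
Median log2 difference between GR KO and parental cells for each chromosome, in DMSO cultures, GC-treated cultures and tumors. Chromosome 15 stands at -0.34 and -0.31 in the cultures and at 0.07 in the tumors.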

How the data were processed

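3′ mRNA libraries were read from whole tumors and cultured cells. Per the labels and the submitters' processing notes, reads were trimmed with Trim Galore 0.6.5 and aligned to GRCm38 with STAR 2.6.1d; the deposited values are counts, raw reads per gene assigned with featureCounts and Ensembl release 75, and the strand setting is not stated. The table holds 39179 genes, no column was left out, and groups follow the deposited labels. Depth per library is given with the groups, and floors and counting intervals (95%) cover counting error only.

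Counts were scaled by TMM and tested with edgeR 4.0.16 (quasi-likelihood F test, R 4.3.3), with Benjamini-Hochberg adjustment over all genes tested, after keeping genes with at least 0.5 CPM in at least 3 libraries of the fit. Tumors against cultures were fitted on the 8 libraries and genotypes in culture on the 11 cultures. Genotypes in tumors were fitted on the 20 tumors and the difference between genotypes on the 16 control libraries. The GC-treated libraries among the 11 and the 20 entered the filter, scaling and estimate of spread, not the contrasts of control groups. A call needs an adjusted p under 0.05 and a fold of at least 1.5. P-values measure the spread between these libraries, each labelled as a replicate of its group. Library names give all cultures a shared date, with letters to tell them apart. Whether the cultures of a group are separate experiments is not stated. Printed CPM share the TMM scale of the 16 libraries. Single genes were also compared by exact permutation of log2(CPM + 1), whose smallest two-sided p is 0.0357 for 5 against 3 and 0.00794 for 5 against 5. Alternatives were DESeq2 1.42.0, other scalings, filters, fits and fold limits, a replicate block, the GC-treated cultures and leaving out each library. The procedure was tried on simulated counts in which 200 genes changed by 2 on the log2 scale. There edgeR recovered 61.5% of them for tumors against cultures and 44.5% for the difference between genotypes. It recovered 87% for genotypes in culture and 79% for genotypes in tumors. Far more genes changed in the real tumors and cultures, so the simulation does not cover that setting. A gene not called can still differ.

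Genes named were *Nr3c1*, *Lrrc32*, the 8 largest calls in each direction at 10 CPM or more without overlap, the 10 restored and 10 not restored lost genes and 5 gained genes with the largest change at 10 CPM or more, and in each of the 30 lists the 2 most abundant members and the called member with the largest difference in each direction. Some genes that the rule picks are not reported. Further examples, among them list members outside this rule, were chosen after their values were seen. The members and lists were chosen with earlier results of these data known. Lists are described by counts and medians, without a test. Promoters came from RefSeq on GRCm38.p6, matched by symbol. Tables and figures used Python 3.11.15, scipy 1.17.1, pandas 2.3.3 and matplotlib 3.10.9.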

Additional observations from a re-analysis of the deposited data

Results flagged for a closer look

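In 11 of 152 groups of 5 GR KO tumors, 1 tumor stood apart on the scale of log2(CPM + 1). Its distance from the nearest other tumor, divided by the range of all 5 on that scale, passed Dixon's 95% limit. Chance passes this limit in about 1 in 20 groups. The ratios below are on that scale, while the levels beside them are CPM. Tumor 4 was the one in 8 of the 11. It was highest for *Cdh26*, with a ratio of 1 (0.708 CPM against 0 in the others), *Ctgf* with 0.912 (3.42 CPM against 0.0579 to 0.199), *Igfbp5* with 0.774 (112 CPM against 57.0 to 66.5), *Eml2* with 0.72 (24.9 CPM against 7.10 to 10.2), *H2-K1* with 0.76 (5402 CPM against 1974 to 2512) and the summed MHC class I list with 0.758 (25079.9 CPM against 13725 to 15878). It was lowest for *Mmp9* with 0.723 (125 CPM against 175 to 199.7) and *Pmepa1* with 0.84 (699 CPM against 1556 to 1811). Tumor 1 was highest for *Zfp618* with 0.715 (11.04 CPM against 4.75 to 6.10) and lowest for *Plvap* with 0.884 (75.8 CPM against 104 to 109), and tumor 3 was lowest for *Atf5* with 0.715 (175 CPM against 288 to 351).

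For 6 of 78 named genes that were neither lost nor gained, the fitted test of the difference itself found the tumor-against-culture effect to differ between genotypes, where 4.97% of all 15468 genes tested were called. The log2 difference of effects was 3.34 for *Laptm5*, 5.44 for *Itgax*, 6.4 for *Hba-a1* and 6.6 for *Psmb9*, and each of these is at or near 0 reads in culture, so its size is not a bound. It was 1.23 for *Atf4*, which fell by 1.58 on the log2 scale in parental tumors and was not called in GR KO tumors (-0.33), and 1.09 for *Cdkn1a*.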

How the results depend on the processing

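All 19 alternatives left the counts of genes higher and lower in GR KO tumors than in cultures within 1.5 times, with ranges of 3658 to 4519 higher and 1973 to 2984 lower when 1 library was left out. Lost genes numbered 491 with the 16 control libraries in 1 fit, and 458 to 688 with 1 library left out. Calls between the tumors of the genotypes numbered 1001 with DESeq2, 783 with 16 libraries, 903 with 31 libraries, 238 at a fold of at least 2, and 61 to 1762 with 1 library left out. Calls for the difference between genotypes numbered 1491 with DESeq2, 493 with library totals, and 383 to 2223 with 1 library left out. Restored genes numbered 267 to 432 with 1 library left out and 286 to 541 over the other settings, with 286 where tumors had to reach the parental mean and 399 against the GC-treated cultures. The cause of these movements was not tested.

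Replicate numbers do not pair the groups: residuals of 10065 genes correlated between -0.334 and 0.0346 over 3 pairs of GR KO tumors and cultures, with 0 best matched to their own number, between -0.501 and -0.0432 over 3 pairs of cultures, with 0, and between -0.137 and 0.336 over 5 pairs of tumors, with 2. With the number as a block, 3998 genes were higher and 2811 lower in tumors, 616 were lost, 343 restored, 363 called between tumors and 836 for the difference between genotypes.

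Of 122 named genes 121 were tested and 110 called, of which 98 stayed called with the same direction in every setting and 12 lost the call somewhere. The sign turned for 3 genes that were not called. *Aldoa* (0.03) had -0.00673 with the block, -0.165 with library totals and -0.192 against the GC-treated cultures. With 1 library left out *Aldoa* ran from -0.0611 to 0.109, below 0 without GR KO culture 1 or 2 or tumor 1 or 2. *Mdm2* (-0.12) had 0.0694 against the GC-treated cultures, and *Mt1* (0.13) had -0.0714 with library totals and -0.0911 against the GC-treated cultures; the cause was not tested. The median of chromosome 15 genes, whose alternatives were chosen after seeing the data, was -0.38 without GR KO culture 3 and -0.38 without parental culture 1, and between -0.32 and -0.36 in the other settings.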

Other observations

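Several abundant lost genes, picked after their values were seen, came back to a level shared by the tumors of both genotypes. *Crip1*, a LIM-domain protein, had 3.57, 2.31 and 3.41 CPM in GR KO cultures, 154, 178 and 133 CPM in parental cultures, 533, 626, 552, 575 and 449.8 CPM in GR KO tumors and 716, 413, 612, 516 and 571 CPM in parental tumors. *Mmp2*, a gelatinase, had 5.12, 2.54 and 7.25 CPM, 153, 143 and 137 CPM, 219, 275, 277, 195 and 168 CPM and 202, 243, 225, 204 and 289 CPM in the same 4 groups. *Sox9*, a transcription factor of the neural crest, had 148, 117 and 143 CPM, 384, 261 and 354 CPM, 857, 661, 510.5, 688 and 835 CPM and 818, 747, 555, 634 and 832 CPM. In each, the cultures of the genotypes did not overlap and the tumors did.

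Others lay at or above the parental level in tumors. *Tapbp*, which loads peptides on class I molecules, had 2596, 2986, 2308, 1352 and 1583 CPM in GR KO tumors and 1749.6, 865, 1058, 831 and 929 CPM in parental tumors, from 128, 78.2 and 108 CPM and 326, 559 and 291 CPM in culture. *Crabp1*, a retinoic acid carrier, had 338, 273, 319.8, 175 and 391 CPM and 76.8, 144, 90.9, 78.8 and 189 CPM in the tumors, from 55.2, 49.7 and 72.2 CPM and 137, 185 and 134 CPM. *Gstm2*, a glutathione transferase, had 53.7, 39.9, 34.9, 42.7 and 34.5 CPM and 13.5, 24.1, 17.9, 17.9 and 22.0 CPM, from 0.414, 0.941 and 0.853 CPM and 13.6, 23.7 and 16.2 CPM. The order of the genotypes' mean levels in culture was turned around in tumors for these genes, with overlap between tumors for *Tapbp* and *Crabp1* and none for *Gstm2*. The fit over all genes called *Crabp1* (adjusted p = 0.0288 from edgeR) and *Gstm2* (0.0268) higher in GR KO than in parental tumors and did not call *Tapbp* (0.104).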
